A study of Mus musculus with 12 samples.

Results

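The genes of the mitochondrial chromosome were taken as every gene that the deposited table of expression levels places on chromosome MT. They were 37 of 23660 genes: 13 protein-coding genes, 2 ribosomal RNA (rRNA) genes and 22 transfer RNA (tRNA) genes. The rule itself used no measured value, although it was set with earlier results of these data known. All 37 passed the filter on low counts. The mitochondrial chromosome is a small circle of DNA that is copied and transcribed inside the organelle. Both of its strands are read as long precursor RNAs, which are cut, largely at the tRNAs, into separate mRNAs, rRNAs and tRNAs. Most of the mRNAs and both rRNAs then receive short poly(A) tails. The mRNAs encode core subunits of respiratory chain complexes I, III and IV and of ATP synthase (complex V), whose other subunits come from nuclear genes, and heart muscle is among the tissues richest in mitochondria.

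RNA was sequenced from ventricle tissue of wild-type male C57BL/6J mice aged 6 to 8 weeks, per the labels, in 4 groups of 3 samples. The groups were Sham, MI (myocardial infarction, in which the left anterior descending artery was tied off permanently), Fer-1+MI and Lip-1+MI. Ferrostatin-1 (Fer-1), given at 1 mg per kg daily, and liproxstatin-1 (Lip-1), given at 3 mg per kg daily, are lipid radical scavengers that block ferroptosis, a form of cell death by lipid peroxidation, and were started 24 h ahead of ligation in mice with the same ligation as MI. The time from ligation to tissue collection, the part of the ventricle taken and a vehicle for MI or Sham are not stated in the labels, and no group received a compound without ligation.

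Every gene in the deposited tables carries an identifier with the rat prefix ENSRNOG, although the labels name mouse as the organism, and no source used here gives the genome build. Whether the libraries are mouse, as labelled, and were counted on rat genes, or are not the labelled mouse ventricle, cannot be told apart from these tables, and every value below carries that limit. Totals ranged from 45469259 to 60777497 counts per sample. All 14 heart muscle markers were detected, with a summed level of 14960 to 18180 FPKM (fragment counts scaled to gene length and library depth) over the 12 samples. Some were low: myoglobin (Mb) had a mean of 23.8 FPKM and the mitochondrial creatine kinase of muscle, Ckmt2, had 3.34 FPKM. Of the red cell genes found, Hbb had a mean of 6.00 FPKM and Alas2 0.0960 FPKM, and the neutrophil gene S100a9 had 0.110 FPKM. In bulk tissue, fewer cells of a type and less RNA per cell cannot be told apart.

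Mitochondrial mRNAs were among the most abundant RNAs of the tissue. Per length, Mt-co1, Mt-co3 and Mt-co2, the 3 core subunits of cytochrome c oxidase (complex IV), were the 3 highest in Sham, at 13915 ± 685, 8507 ± 382 and 6597 ± 160 FPKM (mean ± SD, n = 3). Mt-co1 and Mt-co3 were ranked 1 and 2 among all genes by mean FPKM over the 12 samples, and the lowest mRNA, Mt-nd6, was ranked 55. Below them in Sham came Mt-cyb (5693 ± 349 FPKM), which encodes cytochrome b of complex III, then Mt-atp8 (5202 ± 135 FPKM) and Mt-atp6 (4989 ± 240 FPKM) of ATP synthase. The sample ranges of Mt-cyb and Mt-atp8, and of Mt-atp8 and Mt-atp6, overlapped, so their order was not resolved. The 7 mRNAs of complex I, the NADH dehydrogenase, filled the remaining places, from Mt-nd4l at 3409 ± 233 FPKM to Mt-nd6 at 1150 ± 45.4 FPKM. The longer rRNA gene (AY172581.24, 1571 bases) was at 758 ± 18.2 FPKM and the shorter one (AY172581.9, 958 bases) at 582 ± 13.4 FPKM. Mitochondrial rRNAs make up a large part of the RNA of the organelle in cells, but these libraries were selected with oligo(dT), so amount and tail length of a transcript cannot be told apart here.

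**Figure D1:**
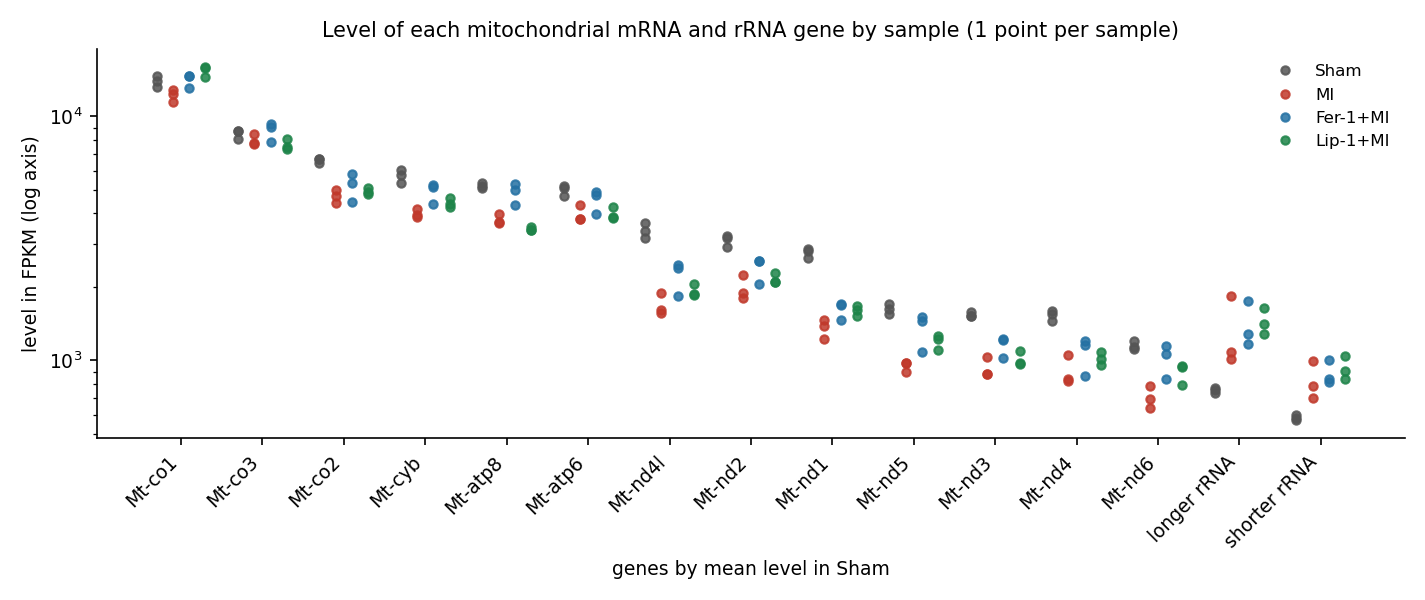
Level of each mitochondrial mRNA and rRNA gene in FPKM on a log axis, 1 point per sample, with genes ordered by their mean in Sham. The complex IV mRNAs stood highest in every group. Each rRNA was lower in the 3 Sham samples than in any ligated sample. The shorter rRNA was at 568 to 595 FPKM in Sham against 699 to 1039 FPKM, and the longer at 738 to 775 FPKM against 1014 to 1845 FPKM.

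The 37 genes together took 7.06%, 6.45% and 6.82% of all counts in the 3 Sham samples and 5.48%, 5.54% and 5.11% in the 3 MI samples. In the Fer-1+MI samples the share was 5.78%, 6.43% and 6.57%, and in the Lip-1+MI samples 6.09%, 6.31% and 5.92%. Every MI sample was therefore below every sample of the other 3 groups. The mRNAs alone took 6.22% to 6.83% of counts in Sham, 4.80% to 5.26% in MI, 5.32% to 6.21% in Fer-1+MI and 5.57% to 5.93% in Lip-1+MI. The rRNAs went the other way, with 0.198%, 0.202% and 0.204% in Sham against 0.447%, 0.255% and 0.282% in MI. Counting error was small beside these gaps: the widest 95% Wilson interval of a sample's share was 0.0149 percentage points for all 37 genes and 0.00382 points for the rRNAs, and such intervals cover counting error only. A share of all counts uses library size alone. On that scale the median log2 fold change of all genes in MI against Sham was also below 0 (-0.17), and the shares were not adjusted for that. The shares are sums over the genes and are given without a test.

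**Figure D2:**
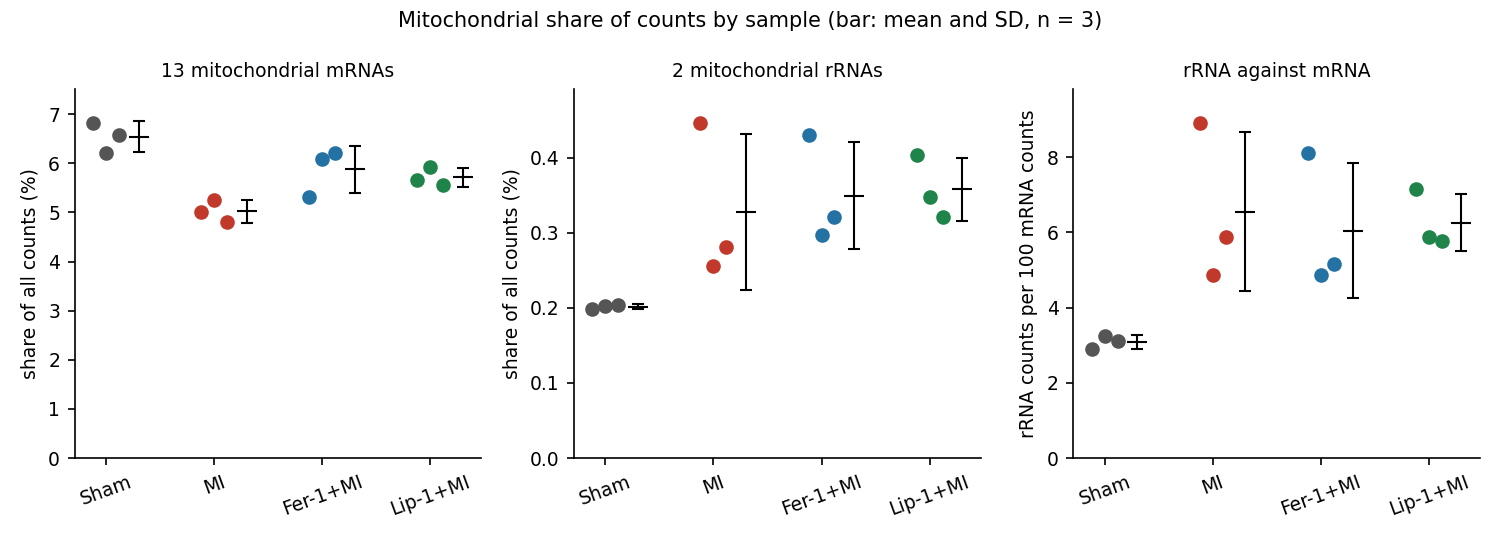
Share of all counts (%) taken by the 13 mitochondrial mRNAs (left) and the 2 rRNAs (middle), and rRNA counts per 100 mRNA counts (right), by sample; bars are mean and SD, n = 3. The ratio was 2.90 to 3.25 in Sham and 4.85 to 8.92 over the ligated samples, and replicate 1 was the highest of each ligated group.

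The first comparison, MI against Sham, asks what ligation without a compound did to these RNAs. Of the 13 mRNAs, 11 fell, while Mt-co1 and Mt-co3 did not pass the test, and both rRNAs rose (edgeR quasi-likelihood test, adjusted p under 0.05). With 11 of the 22 tRNA genes, 24 of 37 genes passed, beside 43.6% of all 16910 genes tested. By direction, 20 of the 37 were lower, beside 20.8% of all genes, and 4 were higher, beside 22.8%. Scaling by library size alone gave 25 calls, 22 lower and 3 higher, beside 49.4%, 35.1% and 14.3% of all genes. The median log2 fold change of the mRNAs was -0.50, against -0.0044 over all genes. Whether the 3 replicates of a group are separate animals is not in the labels, and the p-values thus measure only how far these samples lie apart, which may be technical.

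The complex I mRNAs fell most. Mt-nd1, which encodes a membrane subunit next to the quinone site, was at 2914, 2678 and 2814 CPM (counts scaled to a common library size with TMM factors) in Sham and at 1582, 1627 and 1381 CPM in MI. Mt-nd4l, a small membrane subunit, was at 1081, 1007 and 1136 CPM in Sham against 572, 653 and 549 CPM in MI. Mt-nd5, a proton-pumping subunit, was at 3335, 3031 and 3116 CPM against 1965, 2078 and 2113 CPM. No MI sample reached the Sham range for any of these 3 genes. The log2 fold changes were -0.87 ± 0.06 (SE) for Mt-nd1 (edgeR adjusted p = 2.31e-09), -0.86 ± 0.09 for Mt-nd4l (adjusted p = 9.99e-06) and -0.62 ± 0.09 for Mt-nd5 (adjusted p = 0.000184). The proton-pumping subunit genes Mt-nd4 and Mt-nd2 fell by 0.61 and 0.50, and Mt-nd3 by 0.57. Mt-nd6, the only mRNA read from the opposite strand, went from 666, 617 and 617 CPM to 396, 419 and 482 CPM, a log2 fold change of -0.55 ± 0.11 (adjusted p = 0.00165). Reads of the 23 bases shared by Mt-nd5 and Mt-nd6, and of the 7 bases shared by Mt-nd4l and Mt-nd4, could fall to either gene, since no source used here gives the strand setting of the counting.

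The mRNAs of the other complexes fell less or did not pass. Mt-cyb was at 7351, 6488 and 6885 CPM in Sham and at 5324, 5547 and 5335 CPM in MI, a log2 fold change of -0.35 ± 0.06 (edgeR adjusted p = 4.65e-05). Within complex IV, Mt-co2 fell by 0.33 (adjusted p = 0.000294). Mt-co1, the catalytic subunit, was at 24092, 21780.4 and 22597 CPM in Sham against 22876, 22983 and 20802 CPM in MI, and the groups overlapped. Its log2 fold change was -0.04 ± 0.05 (95% interval -0.15 to 0.07, adjusted p = 0.595). Mt-co3 was at 7300.4, 6743 and 7193 CPM against 7286, 7724 and 7103 CPM, with a log2 fold change of 0.06 ± 0.05 (95% interval -0.05 to 0.17, adjusted p = 0.416). For ATP synthase, Mt-atp8 went from 1127, 1106 and 1145 CPM to 900.1, 940.3 and 878 CPM, a log2 fold change of -0.31 ± 0.05 (adjusted p = 5.67e-05). Mt-atp6 was called lower by 0.17 (adjusted p = 0.0324), a call lost without Sham 1, Sham 3, MI 1 or MI 3, with an adjusted p of up to 0.130. Scaling by library size alone moved the median of all genes to -0.17 in this comparison, -0.16 in Fer-1+MI against Sham and -0.19 in Lip-1+MI against Sham, so changes are given relative to the TMM scale; on the library-size scale Mt-co1 was called lower (-0.20, adjusted p = 0.00295) and Mt-co3 had the opposite sign (-0.10, adjusted p = 0.123).

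Both rRNAs, the RNA core of the mitochondrial ribosome, were higher after ligation. The longer rRNA was at 1239.9, 1273 and 1277 CPM in Sham and at 3473, 1851 and 2007 CPM in MI. The shorter rRNA was at 582, 595 and 598 CPM against 1139, 778 and 892 CPM. The Sham samples lay close together and below all MI samples, and MI 1 stood above MI 2 and MI 3 for both. The log2 fold changes were 0.95 ± 0.26 for the longer rRNA (edgeR adjusted p = 0.0168) and 0.66 ± 0.15 for the shorter one (adjusted p = 0.00574). The call of the longer rRNA was lost without Sham 1 (adjusted p = 0.0523) and with only the 2 groups in the fit (adjusted p = 0.0605).

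In the coordinates of the deposited table, the longer rRNA gene lies at MT:1094-2664 and Mt-nd1 at MT:2740-3694 on the plus strand, with the 75-base tRNA gene AY172581.14 between them, and they moved in opposite directions. Counts of Mt-nd1 per count of the longer rRNA were 2.35, 2.10 and 2.20 in Sham and 0.456, 0.879 and 0.688 in MI. For Fer-1+MI the ratio was 0.505, 0.883 and 0.802 and for Lip-1+MI it was 0.594, 0.719 and 0.724, so all 9 ligated samples lay below the 3 Sham samples. The level of the longer rRNA relative to the shorter, both in FPKM, was 1.30 to 1.31 in Sham and 1.37 to 1.86 over the ligated samples. Both ratios were chosen with the values known and are given without a test.

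**Figure D3:**
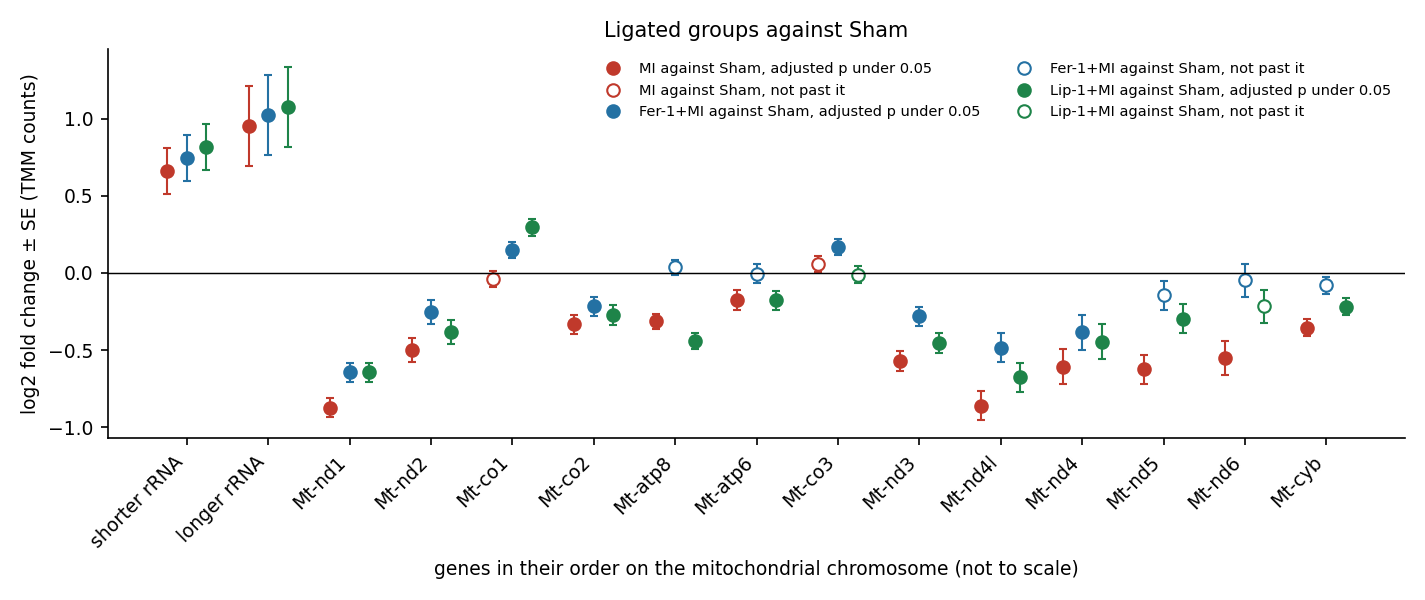
Log2 fold change ± SE against Sham for each mitochondrial mRNA and rRNA gene in MI (red), Fer-1+MI (blue) and Lip-1+MI (green), in the order of the genes on the chromosome; filled points have an edgeR adjusted p under 0.05. The complex I genes Mt-nd1 and Mt-nd4l were among the lowest in all 3 comparisons, which share the Sham samples, and both rRNAs were above 0 in each.

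Changes among the mitochondrial genes themselves were read by scaling each library to the total of its 13 mitochondrial mRNAs, a scaling added after the data had been seen. On that scale, in MI against Sham, all 7 complex I mRNAs were lower, beside 7.41% of all genes called lower, and Mt-co3 was higher, beside 35.4% of all genes called higher. Counting all 37 genes, 7 were higher and 13 lower, and the median of all genes was 0.21. Mt-nd1 took 4.64%, 4.66% and 4.66% of mitochondrial mRNA counts in Sham and 3.06%, 3.00% and 2.79% in MI, a log2 fold change of -0.66 ± 0.07 (edgeR adjusted p = 1.82e-07). Mt-nd4l was lower by a log2 fold change of -0.65 ± 0.08 on this scale (adjusted p = 5.02e-07). Mt-co3 took 11.6%, 11.7% and 11.9% in Sham and 14.1%, 14.3% and 14.4% in MI, a log2 fold change of 0.28 ± 0.07 (adjusted p = 0.00405). On the same scale 18 of 37 genes differed between Fer-1+MI and Sham, beside 27.2% of all genes, 17 between Lip-1+MI and Sham, beside 30.0%, and 26 among the 4 groups, beside 48.4%. Mt-co1 alone supplied 37.4% to 48.8% of mitochondrial mRNA counts and so weighs most in this scale, which shows unequal change, not which gene stayed level.

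Both groups given a compound also differed from Sham, in comparisons that share the Sham samples with the one above. In Fer-1+MI against Sham, 19 of 37 genes passed the edgeR test, beside 36.3% of all genes: 6 mRNAs were lower and 2 higher, and both rRNAs were higher. By direction, 8 of the 37 were higher (beside 19.6% of all genes) and 11 lower (beside 16.7%), and scaling by library size alone gave 23 calls, 5 higher and 18 lower, beside 43.2%, 11.7% and 31.5% of all genes. In Lip-1+MI against Sham, 19 of 37 passed, beside 38.8% of all genes: 10 mRNAs were lower and 1 higher, and both rRNAs were higher. Here 7 were higher (beside 20.8%) and 12 lower (beside 18.0%), against 3 higher and 16 lower, again 19 calls, with library size alone, beside 11.8%, 34.9% and 46.7% of all genes. The median log2 fold change of the mRNAs was -0.14 in Fer-1+MI and -0.30 in Lip-1+MI, against -0.014 and -0.021 over all genes.

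In the Fer-1+MI samples Mt-nd1 was at 1657, 1872 and 1854 CPM, and in the Lip-1+MI samples at 1799, 1872 and 1705 CPM. Every one of these samples was below the Sham range, and the log2 fold change was -0.64 ± 0.06 in each comparison (edgeR adjusted p = 1.51e-07 and 1.41e-07). For the longer rRNA the Fer-1+MI samples were at 3282, 2119 and 2312 CPM and those of Lip-1+MI at 3030.1, 2604 and 2356 CPM, with log2 fold changes against Sham of 1.03 ± 0.26 and 1.08 ± 0.26 (adjusted p = 0.0146 and 0.0108). The shorter rRNA rose by 0.74 ± 0.15 and 0.82 ± 0.15 (adjusted p = 0.00379 and 0.00202). The mRNA called higher in Lip-1+MI was Mt-co1, at 28700.2, 29002 and 26302 CPM, all above the Sham samples, with a log2 fold change of 0.30 ± 0.05 (adjusted p = 0.000190); with library size alone the value was 0.12 (adjusted p = 0.0521). In Fer-1+MI, Mt-co1 and Mt-co3 were called higher by 0.15 and 0.17 (adjusted p = 0.0315 and 0.0189). The call of Mt-co2 (-0.22, adjusted p = 0.0114) was lost without Fer-1+MI 1, that of Mt-nd4 (-0.38, adjusted p = 0.0239) without Sham 1 or Sham 3, and that of Mt-nd2 (-0.25, adjusted p = 0.0211) without any 1 of these 3 samples, with adjusted p of up to 0.0504, 0.0686 and 0.0691. In Lip-1+MI, those of Mt-atp6 (-0.18, adjusted p = 0.0328) and Mt-nd5 (-0.30, adjusted p = 0.0253) were lost without Sham 1, Sham 3 or Lip-1+MI 1, and also without Lip-1+MI 3 for Mt-atp6 and Lip-1+MI 2 for Mt-nd5 (adjusted p up to 0.121 and 0.0869). The calls of Mt-co1 and Mt-co3 in Fer-1+MI were lost with library size alone, where the values were 0.01 and 0.02 (adjusted p = 0.947 and 0.752), and without Sham 2, Fer-1+MI 2 or Fer-1+MI 3, and that of Mt-co1 also without Sham 3 (highest adjusted p 0.143 for Mt-co1 and 0.0983 for Mt-co3).

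The comparison of Fer-1+MI with MI asks what the compound changed in ligated hearts. Of the 37 genes 13 passed the edgeR test, all higher in Fer-1+MI, beside 5.36% of all genes called and 2.29% called higher. Of these, 8 were mRNAs and 5 tRNA genes. The median log2 fold change of the 13 mRNAs was 0.25, against 0.00057 over all genes. Mt-atp8, a small subunit of the membrane part of ATP synthase, was at 1052, 1176 and 1238 CPM in Fer-1+MI, above all MI samples (878 to 940.3 CPM). Its log2 fold change was 0.35 ± 0.05 (adjusted p = 0.000305). Mt-cyb was at 5943, 6814 and 6846 CPM in Fer-1+MI against 5324 to 5547 CPM in MI, a log2 fold change of 0.27 ± 0.06 (adjusted p = 0.00590). These calls of Mt-atp8 and Mt-cyb held when any 1 of the 12 samples was left out, but limma on the FPKM without a filter gave adjusted p of 0.0655 and 0.182.

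The other 6 mRNAs called higher were Mt-nd6 (log2 fold change 0.50), Mt-nd5 (0.48), Mt-nd4l (0.38), Mt-nd3 (0.29), Mt-nd1 (0.23) and Mt-co1 (0.19), with edgeR adjusted p from 0.0116 to 0.0416. Mt-nd5 was at 2353, 3065 and 3162 CPM in Fer-1+MI, so that Fer-1+MI 1 lay nearest to the MI samples, which reached 2113 CPM. Each of these 6 calls was lost without MI 1 (adjusted p of Mt-nd5 0.0613), and all but that of Mt-nd5 also without Fer-1+MI 2 or Fer-1+MI 3, with adjusted p of up to 0.180 for Mt-co1. The number of genes passing was 6 without MI 1, 5 without MI 3, 6 without Fer-1+MI 2 and 8 without Fer-1+MI 3. The rRNAs did not pass: their log2 fold changes were 0.08 ± 0.15 for the shorter and 0.07 ± 0.26 for the longer rRNA (adjusted p = 0.840 and 0.926). Scaled to mitochondrial mRNA, Mt-nd5 and Mt-nd6 were called higher (0.26 and 0.29, adjusted p = 0.0361 and 0.0390), beside 0.509% of all genes called higher. With tRNA genes, 5 were higher and 1 lower, 6 in all, beside 20.3% of all genes called and 19.8% called lower; this count was 0 without MI 1 or Fer-1+MI 2, 1 without Fer-1+MI 3 and 3 without MI 2.

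In Lip-1+MI against MI, which shares the MI samples with the comparison above, 5 of 37 genes passed, all higher, beside 6.10% of all genes called and 3.05% called higher. The mRNAs among them were Mt-co1 and Mt-nd1. Mt-co1 was above every MI sample in all 3 Lip-1+MI samples, with a log2 fold change of 0.33 ± 0.05 (edgeR adjusted p = 0.000586), a call that held when any 1 sample was left out and was lost in limma on the FPKM without a filter (adjusted p = 0.349). Mt-nd1 had a log2 fold change of 0.23 ± 0.06 (adjusted p = 0.0303), lost without MI 3, Lip-1+MI 1 or Lip-1+MI 2 (adjusted p up to 0.158). The number of genes passing was 2 without MI 3 or Lip-1+MI 2, 3 without Lip-1+MI 1, and 8 without MI 2 or Fer-1+MI 1. Mt-nd5 and Mt-nd6 had log2 fold changes of 0.33 ± 0.09 and 0.34 ± 0.11 but did not pass (adjusted p = 0.0693 and 0.111). Scaled to mitochondrial mRNA, Mt-atp8 (-0.32, adjusted p = 0.00584) and Mt-co3 (-0.26, adjusted p = 0.0205) were called lower, beside 16.2% of all genes called lower; without MI 3, Lip-1+MI 1 or Lip-1+MI 2 the number called was 1, and without Fer-1+MI 1 it was 4.

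**Figure D4:**
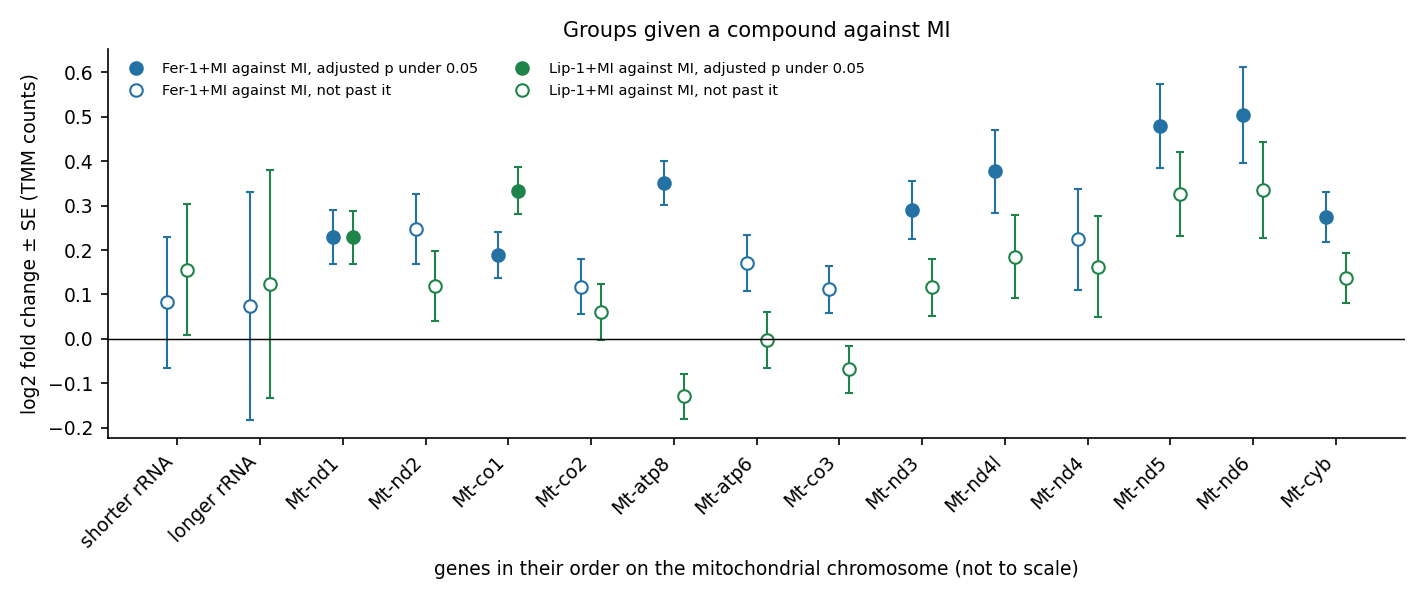
Log2 fold change ± SE against MI for each mitochondrial mRNA and rRNA gene in Fer-1+MI (blue) and Lip-1+MI (green); filled points have an edgeR adjusted p under 0.05. Mt-atp8 lay at 0.35 in Fer-1+MI and at -0.13 in Lip-1+MI, while the rRNAs were within 1 SE of 0 in Fer-1+MI.

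The compounds were compared with each other at different doses, so compound and dose cannot be told apart. In Lip-1+MI against Fer-1+MI, 1 of 37 genes passed the edgeR test, beside 3.15% of all genes, and it was Mt-atp8, which was lower, beside 1.41% called lower. Mt-atp8 was at 818, 848 and 821 CPM in Lip-1+MI against 1052, 1176 and 1238 CPM in Fer-1+MI. The groups did not overlap, and the log2 fold change was -0.48 ± 0.05 (95% interval -0.59 to -0.37, adjusted p = 1.29e-05). Scaled to mitochondrial mRNA it was -0.46 ± 0.07 (adjusted p = 0.000913), where it was again the only 1 of 37 to pass, beside 1.01% of all genes called, 0.473% lower and 0.532% higher. Mt-atp8 took 1.39%, 1.37% and 1.44% of mitochondrial mRNA counts in Lip-1+MI, below each of the other 9 samples (1.74% to 1.98%).

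Mt-atp8 shares 43 of its 204 bases with Mt-atp6, and both are read from the same precursor as neighbours. Mt-atp6 did not pass in this comparison, at 3098, 3398 and 3064 CPM in Lip-1+MI against 3225, 3743 and 3819 CPM in Fer-1+MI (log2 fold change -0.17 ± 0.06, adjusted p = 0.177). Counts of Mt-atp8 per count of Mt-atp6 were 0.264, 0.250 and 0.268 in Lip-1+MI, 0.326, 0.314 and 0.324 in Fer-1+MI, 0.290, 0.275 and 0.288 in MI, and 0.305 to 0.323 in Sham. The gene is shorter than the library inserts of about 300 bp that the labels give, so fragments counted for it could also cover its neighbours. Mt-co1 differed by 0.14 (95% interval 0.04 to 0.25, edgeR adjusted p = 0.174) and Mt-co3 by -0.18 (95% interval -0.29 to -0.07, adjusted p = 0.0859). Mt-nd1 differed by less than 0.01, with a 95% interval of -0.13 to 0.13. The number of genes passing was 2 without MI 1, 3 without Lip-1+MI 3, 4 without MI 3 and 7 without Fer-1+MI 1.

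Among all 4 groups at once, 31 of 37 genes differed, beside 44.3% of all genes. All 13 mRNAs and both rRNAs were among them, with edgeR adjusted p from 7.32e-09 for Mt-nd1 to 0.0318 for Mt-co3.

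The 22 tRNA genes, 60 to 75 bases long, together took 0.0227% to 0.0340% of counts. A fragment of the stated insert size is longer than a tRNA, so tRNAs, their precursors and neighbouring transcripts cannot be told apart in these counts. The tRNA gene with the highest mean count, AY172581.19, lies on the minus strand at the end of Mt-co1 and shares 3 bases with it. It was at 129, 119 and 118 CPM in Sham, 131, 131 and 115 CPM in MI, 132, 139 and 140.4 CPM in Fer-1+MI and 147, 153 and 143 CPM in Lip-1+MI. As for Mt-co1, the Lip-1+MI samples were the highest, with a log2 fold change against Sham of 0.28 ± 0.05 (edgeR adjusted p = 0.000473; 0.11, adjusted p = 0.115, with library size alone).

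The tRNA genes described next were singled out after their values had been seen. AY172581.20, which lies beside Mt-nd6 on the minus strand, was at 13.6, 11.8 and 12.1 CPM in Sham and at 3.89, 6.21 and 4.05 CPM in MI. Its log2 fold change was -1.40 ± 0.24 (edgeR adjusted p = 0.000354), the same direction as Mt-nd6. AY172581.14, between the longer rRNA and Mt-nd1, was at 22.3, 21.5 and 23.6 CPM in Sham against 15.6, 15.5 and 11.3 CPM in MI, and so followed Mt-nd1 (log2 fold change -0.67 ± 0.10, adjusted p = 4.22e-05). AY172581.3, between the 2 rRNAs, rose as they did, from 0.627, 0.718 and 0.704 CPM to 1.37, 1.12 and 1.49 CPM (log2 fold change 0.95 ± 0.26, adjusted p = 0.00595). Each of these 3 calls held without any 1 sample.

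A run of 3 tRNA genes between Mt-nd4 and Mt-nd5, AY172581.23, AY172581.17 and AY172581.11, was low in Fer-1+MI. AY172581.17 was at 3.07, 2.19 and 2.83 CPM in Sham, 1.61, 2.22 and 0.533 CPM in MI, 0.618, 0.725 and 0.906 CPM in Fer-1+MI, and 2.63, 1.96 and 0.887 CPM in Lip-1+MI. The MI and Lip-1+MI groups were widely spread: MI 3 lay below the 3 Fer-1+MI samples and Lip-1+MI 3 within their range. Against Sham, the log2 fold changes in Fer-1+MI were -1.40 ± 0.35, -1.84 ± 0.44 and -2.11 ± 0.48 in the order above (edgeR adjusted p = 0.00688, 0.00457 and 0.00188). Against MI on the TMM scale, the 3 values were -0.48, -0.96 and -1.23, and none passed (edgeR adjusted p = 0.530, 0.276 and 0.169). Counts were low, at 17, 15 and 26 for AY172581.11 in the Fer-1+MI samples. Outside the run, AY172581.16, between Mt-nd3 and Mt-nd4l, was also low in Fer-1+MI, at 1.06, 1.19 and 2.00 CPM against 3.80, 3.10 and 4.33 CPM in Sham. Its log2 fold change of -1.39 did not pass (edgeR adjusted p = 0.0540). On the minus strand between Mt-nd2 and Mt-co1, AY172581.18 was at 35.7, 39.4 and 36.8 CPM in Fer-1+MI, above the 9 other samples (25.2 to 33.0 CPM), with a log2 fold change of 0.36 ± 0.07 against MI (adjusted p = 0.00469).

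**Figure D5:**
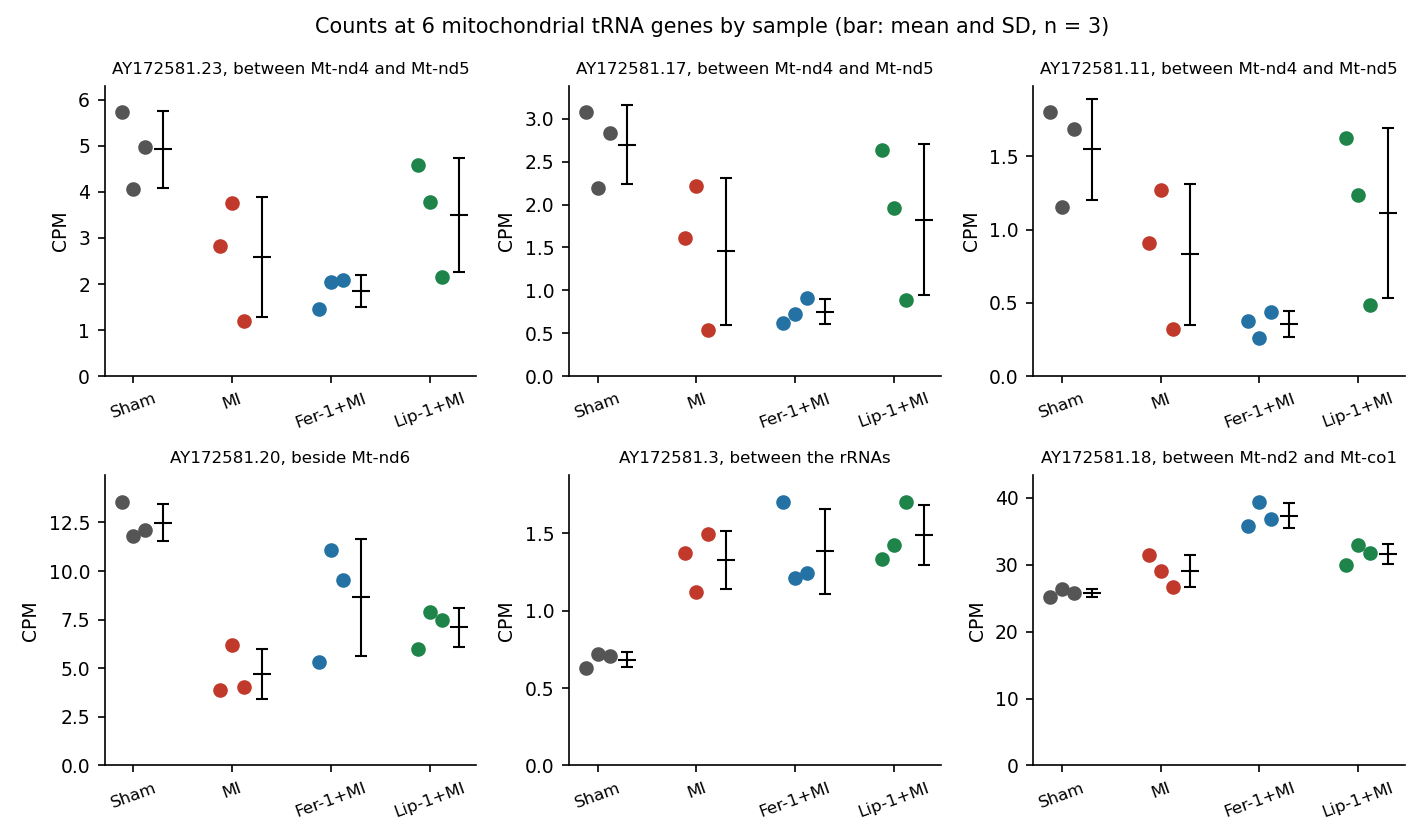
Counts at 6 mitochondrial tRNA genes in CPM after TMM scaling, 1 point per sample, with mean and SD (n = 3) as bars. AY172581.20 was lower in MI (3.89 to 6.21 CPM) than in Sham (11.8 to 13.6 CPM), and AY172581.23, AY172581.17 and AY172581.11 were spread widely within MI and Lip-1+MI.

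The nuclear genes of the same complexes were counted in the same way. Of 72 nuclear subunits of complexes I, III, IV and V tested in MI against Sham, 17 were called higher, beside 22.8% of all genes. That number was near the share of all genes, while 1 was called lower, beside 20.8%. Library size alone turned this to 1 higher and 11 lower, beside 14.3% and 35.1%. The median log2 fold change of the 72 subunits was 0.10, against -0.50 for the mitochondrial mRNAs. With library size alone the median of the subunits was -0.07, so its sign depended on the scaling. By complex the counts on the TMM scale were 1 higher and 1 lower of 34 for complex I, 2 higher of 9 for complex III, 6 higher of 14 for complex IV and 8 higher of 15 for complex V. Summed CPM of the mitochondrial complex I mRNAs per summed CPM of the nuclear ones was 5.61, 4.95 and 5.34 in Sham and 3.11, 3.47 and 3.19 in MI, a ratio that does not depend on scaling. For complex IV the ratio was 17.6, 15.7 and 16.3 in Sham against 14.5, 15.1 and 14.2 in MI. In Fer-1+MI the complex I ratio was 3.57, 4.34 and 4.68, and in Lip-1+MI 3.69, 3.95 and 3.99, all above MI and below Sham. Other complexes differed from this. For complex IV the ratio was 14.91 to 18.77 in Fer-1+MI and 17.56 to 17.71 in Lip-1+MI, and both groups reached above the highest Sham sample (17.63). For complex V it was 0.860 to 1.055 in Fer-1+MI, above MI (0.777 to 0.828), but 0.796 to 0.830 in Lip-1+MI, which overlapped MI. In Fer-1+MI against MI and in Lip-1+MI against MI, edgeR and DESeq2 each called 0 of the 72 nuclear subunits, and in each comparison 8 had an unadjusted edgeR p under 0.05.

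Among named subunits, Cox4i2, the isoform of complex IV subunit 4 that responds to low oxygen, rose by 1.12 ± 0.10 in MI against Sham (edgeR adjusted p = 3.37e-08). Ndufv3 of complex I fell by 0.31 ± 0.06 (adjusted p = 0.000231), although its symbol has 2 loci in the files. Ring subunit genes of ATP synthase, Atp5mc1 and Atp5mc2, had values of 0.29 and 0.25 (adjusted p = 0.000579 and 0.000856), which were not called with library size alone (0.13 and 0.09).

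For the lists that follow, all genes are the background: 22.8% were called higher and 20.8% lower on the TMM scale, and 14.3% and 35.1% with library size alone. Of 22 genes for transcription and copying of mitochondrial DNA, 7 were called lower in MI against Sham, beside 20.8% of all genes, and the others did not pass; with library size alone 16 were lower, beside 35.1%. Tfb2m, a factor that starts transcription, fell by 0.47, Tk2, which supplies nucleotides for mitochondrial DNA, by 0.47, and Mterf4, a member of the MTERF family, by 0.56 (adjusted p = 0.00178, 0.00605 and 0.00493). The mitochondrial RNA polymerase gene Polrmt (-0.26, adjusted p = 0.0695) and Tfam, which packages mitochondrial DNA (-0.06, adjusted p = 0.507), did not pass; both were called lower with library size alone (-0.43 and -0.22). Of 24 genes for RNA processing, stability and decay, 8 were lower (beside 20.8% of all genes) and 1 higher (beside 22.8%), Grsf1 (0.12, adjusted p = 0.0432), which encodes a protein of mitochondrial RNA granules; with library size alone 14 were lower, beside 35.1%. Mrm2, which in human cells methylates the larger mitochondrial rRNA, fell by 0.97 (adjusted p = 0.000142). Lrpprc, which stabilises mitochondrial mRNAs, had a value of -0.07 (adjusted p = 0.322; -0.23 and called with library size alone).

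Of 18 genes for chaperones, proteases and the stress response of mitochondria, 12 were called higher, beside 22.8% of all genes, and the others did not pass. With library size alone 3 were higher and 1 lower, beside 14.3% and 35.1%. The matrix protease Lonp1 rose by 0.74 ± 0.05 (edgeR adjusted p = 3.15e-09) and the matrix chaperone Hspa9 by 0.35 ± 0.04 (adjusted p = 7.36e-07). Of 12 genes that control mitochondrial biogenesis 5 were higher (beside 22.8% of all genes) and 1 lower (beside 20.8%), the latter being the coactivator Ppargc1a, which fell by 0.43 ± 0.12 (adjusted p = 0.00772); with library size alone 4 were higher and 3 lower, beside 14.3% and 35.1%. The nuclear receptor genes Esrra and Esrrb were among those higher, with values of 0.33 and 1.35 (adjusted p = 0.000188 and 0.00102). Of 74 genes for mitochondrial ribosomal proteins, 7 were higher and 5 lower, beside 22.8% and 20.8% of all genes, while with library size alone 2 were higher and 35 lower, beside 14.3% and 35.1%. Of 14 genes for translation factors, Mto1 and Tufm were higher and Gfm2, Gtpbp3 and Taco1 lower, beside the same shares, and with library size alone 8 were lower, beside 35.1%.

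Some markers of cell types also differed between groups. The summed FPKM of the 8 fibroblast markers found was 8698 to 9350 in Sham and 7017 to 7530 in MI, with 8052 to 8669 in Fer-1+MI and 7665 to 7966 in Lip-1+MI. Mgp, which encodes matrix Gla protein, made up most of this sum, with a mean of 4575 FPKM over the 12 samples, and other members differed: Mgp went from 4141 ± 181 CPM in Sham to 2688 ± 44.0 CPM in MI, while the collagen gene Col1a1 went from 10022 ± 334 to 15681 ± 671 CPM and Pdgfra from 439 ± 28.4 to 1017 ± 53.5 CPM (mean ± SD, n = 3). That of 7 smooth muscle and pericyte markers was 1286 to 1388 in Sham, 2022 to 2203 in MI, 1581 to 1600.0 in Fer-1+MI and 1811 to 2052 in Lip-1+MI. The summed level of heart muscle markers overlapped between the groups, at 16870 to 17250 FPKM in Sham and 16090 to 17960 FPKM in MI. Actc1 and Nppa made up most of this sum (means of 5246 and 4493 FPKM over the 12 samples), and its members differed in direction. Actc1 went from 7892 ± 462 CPM in Sham to 9496 ± 568 CPM in MI and Nppa from 3800 ± 180 to 5224 ± 301 CPM. Pln went from 803 ± 5.82 to 560 ± 71.1 CPM. The sum of leukocyte markers, most of it Lyz2 and Cd68, also overlapped (374.5 to 403.8 FPKM in Sham, 357 to 422 FPKM in MI). Endothelial markers were at 68.2 to 70.3 FPKM in Sham and 62.8 to 67.4 FPKM in MI, and red cell markers at 31.1 to 38.2 FPKM in Sham and 17.3 to 23.0 FPKM in MI. FPKM are not on the TMM scale. With limma on filtered log2(FPKM + 1), the median log2 fold change of all genes in MI against Sham was -0.13. The FPKM sums were not adjusted for that. In the edgeR test of MI against Sham, 22.8% of all genes were called higher and 20.8% lower. Beside these shares, 6 of 7 smooth muscle and pericyte markers were higher, and 3 of 8 fibroblast markers were higher and 3 lower. Of 14 heart muscle markers 4 were higher and 3 lower, near the shares of all genes. The myosin gene Myh6 had 10065 ± 277 CPM in Sham and 7449 ± 648 CPM in MI. Marker counts were not made with library size alone. Of 10 leukocyte markers tested 5 were higher and 1 lower, and the macrophage gene Adgre1 had 51.8 ± 3.68 CPM in Sham and 89.1 ± 6.43 CPM in MI. Of 7 endothelial markers 1 was higher and 1 lower, no more than the shares of all genes, and 3 of 4 red cell markers were lower. The genes named here were chosen after their values were seen. Every marker found was above 0 in at least 1 sample. The part of these differences in the mitochondrial results was not tested.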

How the data were processed

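Libraries were made from oligo(dT)-selected RNA (RIN over 7), strand-marked and read as 150 bp pairs, per the labels' protocols. The authors deposited raw counts of 32623 genes (10070 at 0 in every sample) and FPKM of 23660 genes; per the submitters' processing notes, tools named include cutadapt 1.9, HISAT2 2.2.1 and StringTie 2.1.6. The genome build and strand setting are not given in the sources used here. Counts were tested with edgeR 4.0.16 (R 4.3.3): filterByExpr (minimum count 10, total 15), TMM, robust quasi-likelihood fit of group over all 12 samples, Benjamini-Hochberg adjustment over 16910 genes, threshold 0.05. The steps were tested on simulated data. A count of 3 corresponds to 0.066 CPM in the smallest library. Alternatives used DESeq2 1.42.0, limma 3.58.1 on log2(FPKM + 1) and log2(FPKM + 0.1), other scalings and filters, a replicate block and each sample left out; scaling to mitochondrial mRNA and the list counts under other scalings were added after seeing the data. All 13 mRNAs and both rRNAs were named, with tRNA genes partly chosen by value. Nuclear genes were drawn from the 3 with the lowest p per list, not all of which are named, plus Tfam, Polrmt, Lrpprc and Ppargc1a. Grsf1, Esrrb, Gfm2, Taco1 and the marker genes with values were chosen after their values were seen. Members and lists were chosen with earlier results of these data known. No sequence is printed.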

Additional observations from a re-analysis of the deposited data

How the results depend on the processing

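Of 90 log2 fold changes of mitochondrial mRNAs and rRNAs, 47 were past the threshold, and none of those 47 changed sign under the alternatives run. Total counts of mitochondrial genes called stayed within 1.5 times of the reported ones in the comparisons with Sham and among the 4 groups, but counts by direction moved further with library size alone: from 8 higher and 11 lower to 5 and 18 in Fer-1+MI against Sham, and from 7 higher to 3 in Lip-1+MI against Sham. In Fer-1+MI against MI the count was 8 with only the groups compared and 2 with unfiltered limma, and 5 to 18 with 1 sample left out. In Lip-1+MI against MI it was 8 with DESeq2 and 1 with unfiltered limma, and 2 to 8 with 1 sample left out. In Lip-1+MI against Fer-1+MI it was 2 with library size only, 5 with DESeq2, 3 with limma on log2(FPKM + 1) and 2 on log2(FPKM + 0.1), and 1 to 7 with 1 sample left out. Scaled to mitochondrial mRNA, the counts with 1 sample left out were 0 to 7, 1 to 4 and 1 to 3 in these 3 comparisons. Over all genes, Fer-1+MI against MI gave 907 calls, against 550 with only the groups compared and 547 with unfiltered limma. Among nuclear genes, Sdhb turned to -0.0033 with library size only, and Uqcrc1 to -0.034 with library size only, -0.024 with limma on log2(FPKM + 1), filtered or not, and -0.025 on log2(FPKM + 0.1). The cause was not tested. Between samples of the same replicate number, correlations of deviations from the group mean were -0.0274 to 0.0602 for pairs with Sham. Among the ligated groups they were all positive, from 0.0319 to 0.192. Samples of different numbers were not compared, and whether equal numbers mark a shared source was not tested. The replicate block gave 25, 20, 20, 14, 7 and 1 mitochondrial genes in the 6 comparisons in the order described and 31 among the 4 groups.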
